A study of Mus musculus with 6 samples.

Results

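Macrophages and the monocytes they can come from were followed in mouse lens capsules through 32 marker genes, chosen by gene symbol. They comprise genes common to white blood cells, macrophage identity genes, monocyte receptors, antibody receptors with their signalling adapters, the chains of complement C1q, genes of resident macrophages, genes of lipid-laden macrophages, and a pair of accessory genes of killing and sensing. All 32 were among the 56940 genes listed in every library. The study is a mouse model of cataract surgery, in which the fiber cells are removed from the lens and the capsule is left behind with its lens epithelial cells (LEC). Capsules of wildtype C57BL/6 mice were taken at the operation (0 h) or 5 days after it, and total RNA was sequenced from 3 libraries per time, each a pool of 5 capsules. The 0 h capsules were those of the second eye, operated on 5 days after the other eye of the same mouse, so the 0 h group stands for a freshly operated lens in an animal with an older wound in the other eye. The labels name lens epithelial cells as the cell type of all 6 libraries, but a capsule carries whatever cells adhere to it.

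Monocytes leave the blood through CCR2 and related chemokine receptors and can become macrophages in the tissue. Macrophages depend on signals through the receptor CSF1R, take up antibody-coated particles through Fc receptors, and pass these signals to kinases through adapters that carry a short tyrosine motif called an ITAM. The healthy lens has no blood vessels and is closed by its capsule, while resident macrophages are known in neighbouring eye tissues such as the ciliary body, iris and retina.

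Most of the macrophage and monocyte markers were near the limit of detection at 0 h and were readily detected at 5 days. Levels are given as CPM, the library's gene counts scaled to a common total after TMM scaling, a correction for differences in library make-up. The levels of the 32 genes summed to 44.8, 41.0 and 86.0 CPM in 0 h replicates 1, 2 and 3, and to 1452, 1005 and 1155 CPM in the 5 day replicates. The means were 57.3 ± 25.0 and 1204 ± 228 CPM (SD, n = 3 each), a 21.01-fold ratio, and the lowest 5 day library was above the highest 0 h library. In bulk RNA, more cells of a type and more RNA per cell cannot be told apart.

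A gene was called when its adjusted p was below 0.05 in the quasi-likelihood test of edgeR, adjusted by Benjamini-Hochberg over 14676 tested genes. Of the 32 markers, 31 were called higher at 5 days and 0 lower, where 25.1% of all tested genes were called higher and 22.5% lower. Cd163, a scavenger receptor of resident macrophages, was the gene not called. For the same 31 genes every 5 day library was above every 0 h library, which was so for 29.8% of all tested genes. The median log2 fold change was 4.60 over the markers and -0.01 over all tested genes, and 31 markers exceeded a log2 fold change of 2, against 8.2% of tested genes. Scaling by total library size moved the median of all tested genes to 0.124 and their calls from 3683 higher and 3301 lower to 4438 and 2613, and it left the markers at 31 higher and 0 lower.

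The low starting level shapes what can be read from these counts. Only 9 of the 32 markers met the low-count filter through the 0 h libraries alone, and all 9 were called higher. The other 23 needed their 5 day counts to enter the test, so for the called genes among them a difference was built into their entry. Over the 0 h libraries together 13 markers had under 20 counts, which makes the size of their rise less certain than its direction. Together the markers had 334, 375 and 725 counts in the 0 h libraries, and 9155, 8044 and 10592 in those of 5 days.

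**Figure D1:**
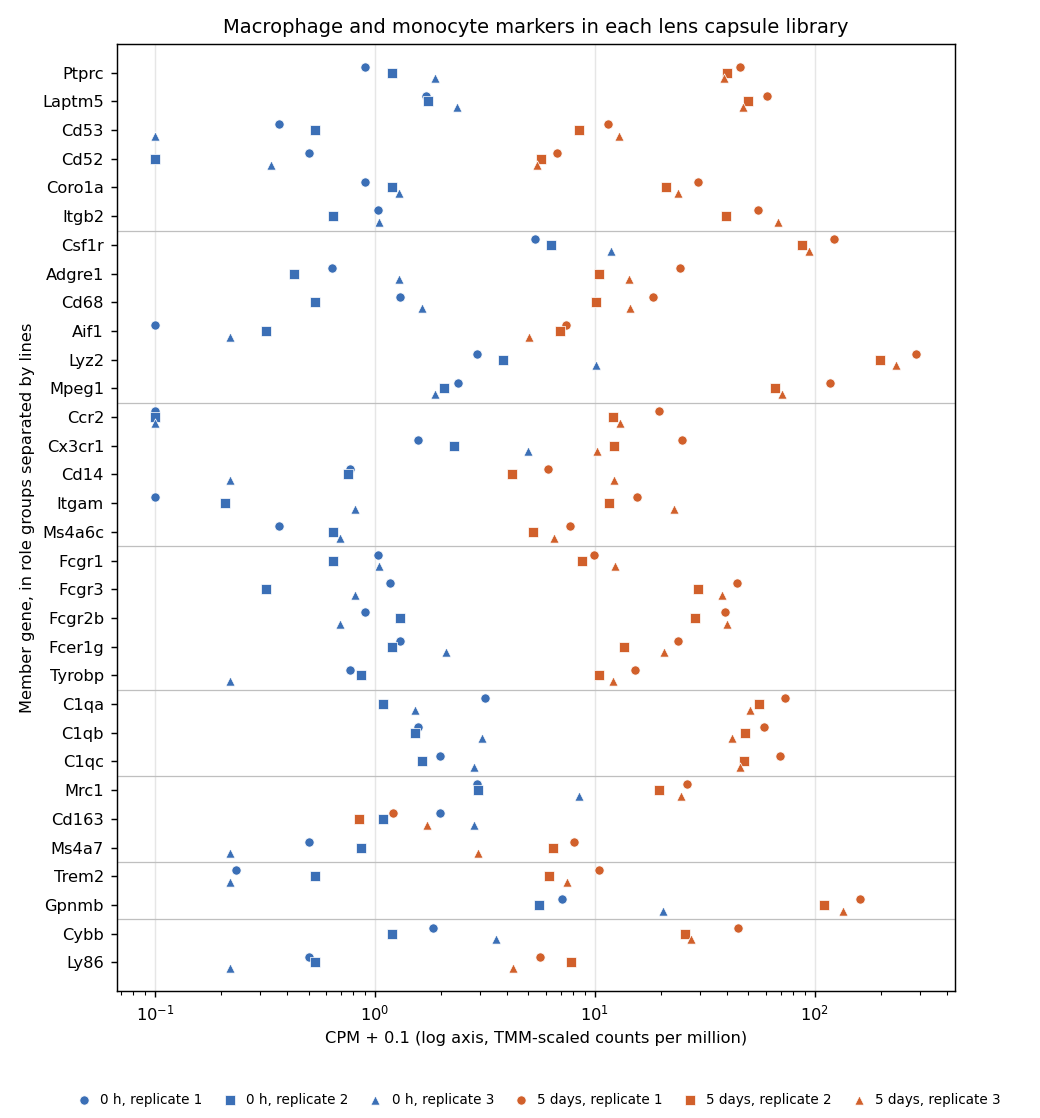
Level of each of the 32 markers in each library, as CPM plus 0.1 on a log axis, with 0 h in blue, 5 days in orange and replicates 1, 2 and 3 as circles, squares and triangles. For 31 genes the 3 orange points lie to the right of the 3 blue points, and Cd163 is the row in which they mix.

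Replicates were not interchangeable. Replicate 3 at 0 h had the highest value of its time for 19 of the 32 markers, and replicate 1 at 5 days had the highest of its time for 24. The same 0 h replicate 3 also carried the most photoreceptor marker RNA (771 CPM, against 581 and 513 in replicates 1 and 2) and the most pigment cell marker RNA (33.9 CPM, against 12.6 and 16.5). The part of tissue beside the lens in the 0 h marker level was not tested. Without this library the summed 0 h level was 42.9 CPM. The labels state separate pools but not whether a mouse gave capsules to both times. Each 0 h mouse also had an eye operated on 5 days earlier, so shared mice are possible. The main test did not pair pools, so its p-values measure the spread between these pools.

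The DNA just before the start of a macrophage gene often holds sites for PU.1, the transcription factor that defines the myeloid lineage, and for its partners of the IRF and C/EBP families. RefSeq windows on build GRCm38.p6, from 250 bases before to 50 bases after the start, matched 25 of the 32 markers. The 200 bases before the start are shown for 6 of them, written 5′ to 3′ on the gene's strand with a motif match in capitals. Lyz2 is the marker with the highest level per length, Ccr2 the marker without a count at 0 h, Fcgr3 and Fcgr2b an activating and an inhibiting receptor that share sequence, C1qc a complement chain, and Cd163 the marker that was not called. They lie at chr10:117282273-117282472 (minus strand) for Lyz2, chr9:124101983-124102182 (plus strand) for Ccr2, chr1:171059404-171059603 (minus strand) for Fcgr3, chr1:170976072-170976271 (minus strand) for Fcgr2b, chr4:136892915-136893114 (minus strand) for C1qc and chr6:124304451-124304650 (plus strand) for Cd163.
Lyz2: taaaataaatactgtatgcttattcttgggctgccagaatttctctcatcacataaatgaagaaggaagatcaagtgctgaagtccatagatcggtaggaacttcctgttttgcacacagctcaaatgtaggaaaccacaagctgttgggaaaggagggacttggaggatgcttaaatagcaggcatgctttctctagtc
Ccr2: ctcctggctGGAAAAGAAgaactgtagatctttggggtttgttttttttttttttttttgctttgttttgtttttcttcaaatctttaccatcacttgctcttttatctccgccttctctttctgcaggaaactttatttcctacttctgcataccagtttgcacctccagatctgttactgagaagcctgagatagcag
Fcgr3: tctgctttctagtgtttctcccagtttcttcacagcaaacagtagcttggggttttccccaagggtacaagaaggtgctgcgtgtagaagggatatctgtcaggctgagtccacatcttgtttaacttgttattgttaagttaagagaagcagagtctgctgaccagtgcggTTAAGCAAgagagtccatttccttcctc
Fcgr2b: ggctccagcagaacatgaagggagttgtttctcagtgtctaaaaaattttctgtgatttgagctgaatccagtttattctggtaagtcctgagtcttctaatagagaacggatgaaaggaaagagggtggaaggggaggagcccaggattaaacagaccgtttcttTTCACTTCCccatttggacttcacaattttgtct
C1qc: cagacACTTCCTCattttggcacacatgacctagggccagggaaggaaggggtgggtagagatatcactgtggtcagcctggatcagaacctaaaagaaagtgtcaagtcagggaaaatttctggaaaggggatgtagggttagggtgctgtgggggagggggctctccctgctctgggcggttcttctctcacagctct
Cd163: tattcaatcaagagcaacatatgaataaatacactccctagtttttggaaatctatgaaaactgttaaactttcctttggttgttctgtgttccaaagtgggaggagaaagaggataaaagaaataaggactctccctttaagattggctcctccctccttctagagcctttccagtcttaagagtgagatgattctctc
The PU.1 motif GAGGAAGT, searched on both strands, was in the windows of 2 markers (C1qc and Cd53) and in 3.2% of all 32851 windows. The composite motif of PU.1 with an IRF, GGAANNGAA, was in those of 6 markers (Ccr2, Cd68, Cybb, Fcgr2b, Gpnmb and Ms4a6c) and in 8.24% of all windows. The C/EBP motif TTGCNNAA was in those of 3 markers (Cd68, Fcgr3 and Trem2) and in 10.8% of all windows. The TATA box TATAAA was in those of Laptm5 and Ptprc and in 13.6% of all windows. The match in Ccr2 begins 191 bases before the start on the gene's own strand. Those of Fcgr3, Fcgr2b and C1qc are on the other strand, beginning 28, 34 and 195 bases before the start. Among the 29 windows of the 25 markers, 16 held none of these motifs, the printed ones of Lyz2 and Cd163 among them. A match describes letters, not a bound site, and a missing match says only that these letters are not in this window.

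All 6 genes common to white blood cells rose. Ptprc encodes CD45, the phosphatase on the surface of nucleated blood cells. Its level was 0.81, 1.09 and 1.78 CPM in 0 h replicates 1 to 3 and 45.7, 39.8 and 38.5 CPM at 5 days. Laptm5, a lysosomal membrane protein of blood cells, stood at 1.61, 1.64 and 2.25 CPM and then at 60.4, 49.7 and 47.0 CPM. For both genes the times were far apart beside the spread among the libraries of a time. Ptprc rose by a log2 fold change of 5.04 (SE 0.23, adjusted p = 1.28e-08) and Laptm5 by 4.82 (SE 0.20, adjusted p = 6.18e-09). Itgb2, the beta chain shared by the leukocyte integrins, went from 0.94, 0.55 and 0.95 CPM to 55.0, 39.5 and 68.0 CPM. Its log2 fold change of 6.05 (SE 0.29, adjusted p = 1.65e-08) was the highest of the markers that had more than 3 counts at 0 h. Coro1a, an actin-binding protein of blood cells, was at 0.81, 1.09 and 1.19 CPM and then at 29.5, 20.98 and 23.8 CPM, a log2 fold change of 4.55 (SE 0.26). The tetraspanin Cd53 and the small surface glycoprotein Cd52 reached 10.8 ± 2.25 and 5.88 ± 0.695 CPM at 5 days (SD, n = 3). For Cd52, 14.5% of the exon bases lie opposite Crybg2, which had 0 counts at 0 h and 3 at 5 days. Cd53 and Cd52 each had 1 library without a count at 0 h, so the size of their rise depends on the others. The Cd53 log2 fold change of 5.42 was 6.25 without 0 h replicate 2. The Cd52 log2 fold change of 4.76 was 5.50 without 0 h replicate 1 and 4.14 without 0 h replicate 2.

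All 6 macrophage identity genes rose as well, and their summed level went from 17.1 ± 8.08 to 464 ± 104 CPM (SD, n = 3). Lyz2 encodes the lysozyme of macrophages and granulocytes. It was at 2.82, 3.72 and 10.1 CPM at 0 h and at 290, 198 and 235 CPM at 5 days. The Lyz2 log2 fold change was 5.43 (SE 0.32, adjusted p = 7.57e-08) and 6.17 without 0 h replicate 3, the library with the highest 0 h value. Lyz2 shares 15.4% of its 50-base words with its copy Lyz1, which had 0 to 3 counts in each library. Csf1r, the receptor for the growth factors CSF1 and IL-34, was at 5.23, 6.24 and 11.8 CPM at 0 h and at 122, 87.4 and 93.8 CPM at 5 days. Its log2 fold change was 3.70 (SE 0.24, adjusted p = 1.64e-07), and 15.1% of its exon bases lie opposite Hmgxb3, which had 1172 counts over the 0 h libraries and 1274 over those of 5 days. Mpeg1 encodes perforin-2, a pore-forming protein that acts on engulfed bacteria. It went from 2.28, 1.97 and 1.78 CPM to 117, 66.2 and 70.7 CPM, so 5 day replicate 1 stood above the other 2 while the times stayed well apart. The Mpeg1 log2 fold change was 5.39 (SE 0.27, adjusted p = 2.15e-08).

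Proteins often used to stain macrophages in tissue were also represented. Adgre1 encodes F4/80, and went from 0.684 ± 0.448 to 16.4 ± 7.26 CPM (SD, n = 3). Its log2 fold change of 4.55 (SE 0.46) was 5.20 without 0 h replicate 3. Cd68, a lysosomal glycoprotein, went from 1.06 ± 0.567 to 14.2 ± 4.13 CPM (SD, n = 3), a log2 fold change of 3.74 (SE 0.40). Aif1 encodes the calcium-binding protein IBA1. It had 3 counts over the 0 h libraries, and its 5 day values were 7.30, 6.87 and 4.91 CPM. That is a ratio of 51.9 with an exact 95% counting interval of 17.4 to 254, which covers counting error only. The fitted Aif1 value of 5.56 was 6.33 without 0 h replicate 2.

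**Figure D2:**
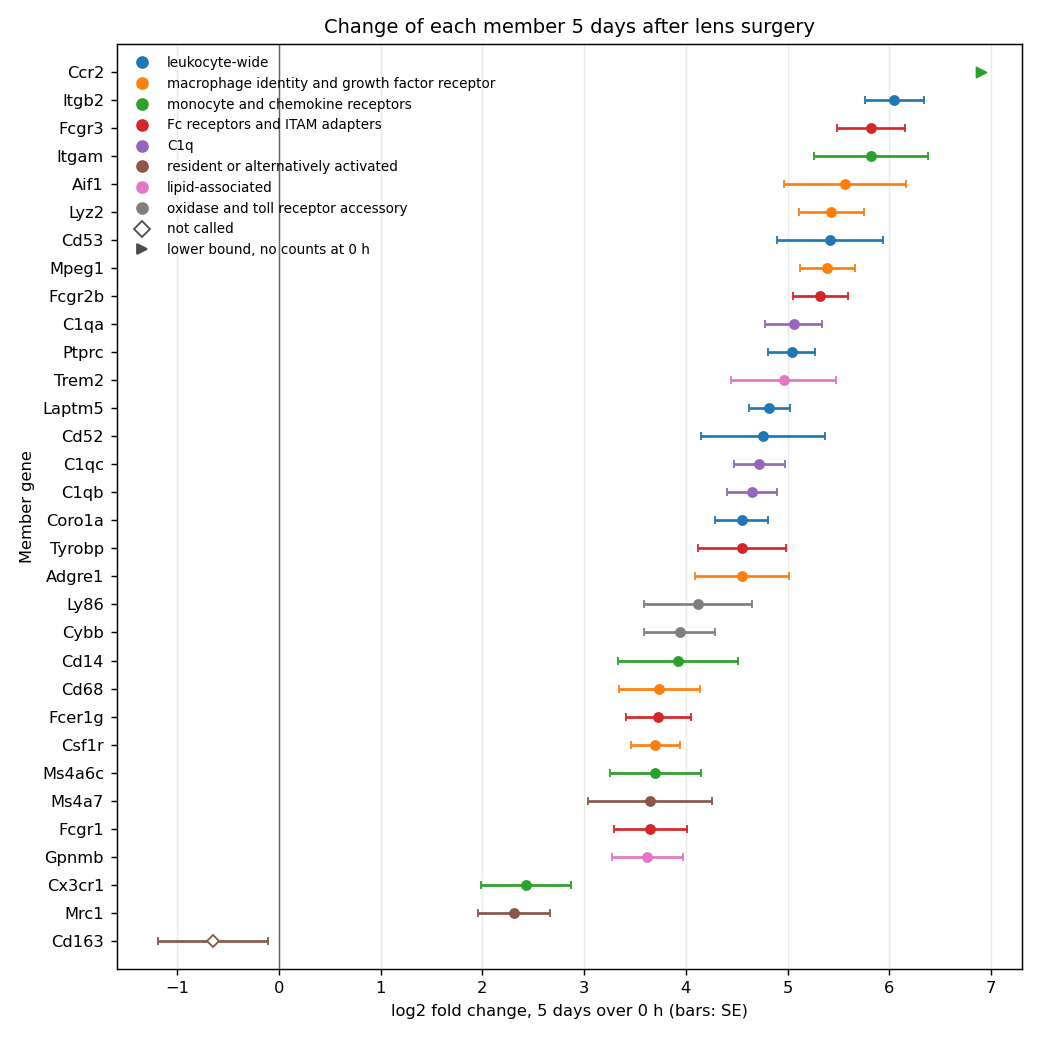
Log2 fold change of 5 days over 0 h for each marker with its standard error, coloured by role, from the fit over all 6 libraries. The triangle for Ccr2 is a lower bound against 3 counts, and the open diamond for Cd163 lies on the other side of 0 from the 31 called genes.

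All 5 genes of the monocyte and chemokine receptor group rose, from different starting points. Ccr2, the receptor for CCL2 that brings monocytes out of the bone marrow and into tissue, had 0 counts in each 0 h library. It was at 19.5, 11.99 and 12.9 CPM at 5 days, at least 119.7-fold higher when the 0 h group is set to 3 counts over its 3 libraries (adjusted p = 1.42e-06 in edgeR's quasi-likelihood test). Cx3cr1 encodes the fractalkine receptor of patrolling monocytes and of many resident macrophages. It was already at 1.48, 2.19 and 4.87 CPM at 0 h and reached 24.7, 12.1 and 10.1 CPM. The groups did not overlap, but the nearest libraries, 4.87 and 10.1 CPM, were closer than for Ccr2. The Cx3cr1 log2 fold change of 2.43 (SE 0.44, adjusted p = 0.000635) was among the lowest of the called markers and was 3.05 without 0 h replicate 3.

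Itgam encodes CD11b, which pairs with the Itgb2 chain to form a complement receptor. It went from 0.274 ± 0.383 to 16.6 ± 5.73 CPM (SD, n = 3), a log2 fold change of 5.82 (SE 0.56). Most of its 0 h counts were in replicate 3, and the Itgam value without it was 7.78. In the GENCODE M21 annotation 68.7% of its exon bases also belong to a same-strand gene model, Gm49368, which had 0 counts in all libraries. Cd14, the co-receptor for bacterial lipopolysaccharide, went from 0.482 ± 0.315 to 7.42 ± 4.17 CPM (SD, n = 3), with 12.1 CPM in 5 day replicate 3 against 6.03 and 4.12 in replicates 1 and 2. Ms4a6c, a membrane protein of the MS4A family, rose by a log2 fold change of 3.70 (SE 0.45). It shares 11.3% of its 50-base words with Ms4a6b, and 53.1% of its exon bases lie opposite BE692007.

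All 5 genes of antibody binding and its adapters rose. Fcgr3 encodes the activating low-affinity receptor for IgG, and Fcgr2b its inhibiting counterpart, which carries an inhibitory motif. Fcgr3 was at 1.07, 0.22 and 0.71 CPM at 0 h and at 44.4, 29.5 and 38.0 CPM at 5 days. Fcgr2b was at 0.81, 1.20 and 0.59 CPM and then at 38.9, 28.5 and 39.9 CPM. The 5 day means were 37.3 ± 7.49 CPM for Fcgr3 and 35.8 ± 6.32 CPM for Fcgr2b (SD, n = 3), which per kilobase of transcript is 27.7 and 10.1. The log2 fold changes were 5.82 (SE 0.33, adjusted p = 5.40e-08) for Fcgr3 and 5.32 (SE 0.27, adjusted p = 2.30e-08) for Fcgr2b. Their transcripts share 12.8% and 11.4% of their 50-base words with each other, so some reads could not be placed between them. Fcgr1, the high-affinity receptor, was at 10.3 ± 1.89 CPM at 5 days (SD, n = 3), with a log2 fold change of 3.65 (SE 0.36).

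The adapters rose with the receptors. Fcer1g, the gamma chain that signals for the activating Fc receptors, went from 1.44 ± 0.503 to 19.3 ± 5.28 CPM (SD, n = 3), a log2 fold change of 3.73 (SE 0.32). Tyrobp encodes DAP12, the adapter of TREM2 and other receptors. It went from 0.518 ± 0.349 to 12.5 ± 2.47 CPM (SD, n = 3), and its log2 fold change was 4.55 (SE 0.43).

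The 3 chains of C1q, which together form the recognition part of the classical complement pathway, rose by similar amounts. C1qa was at 3.09, 0.98 and 1.42 CPM at 0 h and at 73.0, 55.7 and 50.5 CPM at 5 days. C1qb was at 1.48, 1.42 and 2.97 CPM and then at 59.0, 48.0 and 42.2 CPM. C1qc was at 1.88, 1.53 and 2.73 CPM and then at 69.5, 47.6 and 45.6 CPM. In each chain 5 day replicate 1 was highest and replicate 3 lowest, and the times were far apart. The log2 fold changes were 5.06 for C1qa (SE 0.28), 4.65 for C1qb (SE 0.25) and 4.72 for C1qc (SE 0.25), and the largest of them differs from the smallest by less than the sum of their standard errors. The adjusted p was 5.27e-08 for C1qa, 3.61e-08 for C1qb and 3.00e-08 for C1qc in edgeR's quasi-likelihood test.

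Genes of resident or alternatively activated macrophages had 2 of 3 members called. Their summed level at 5 days was 4.34-fold that at 0 h, where the other roles had ratios of 12.8 to 35.4, a difference that was not tested. Mrc1 encodes the mannose receptor. Its 0 h values were 2.82, 2.85 and 8.43 CPM, and its 5 day values 26.2, 19.5 and 24.6 CPM. The groups did not overlap, and the Mrc1 log2 fold change of 2.31 (SE 0.35, adjusted p = 0.000161) was the lowest of the called markers and was 3.03 without 0 h replicate 3. Cd163 takes up complexes of haemoglobin with haptoglobin. It was at 1.88, 0.98 and 2.73 CPM at 0 h and at 1.11, 0.75 and 1.64 CPM at 5 days, so the times overlapped. Its log2 fold change was -0.65 (SE 0.54, adjusted p = 0.349) and ranged from -1.31 to -0.27 over the other settings, with no call in those that tested it. At this depth a fall or no change in Cd163 could not be told apart. Ms4a7, a further MS4A family member, went from 0.429 ± 0.324 to 5.71 ± 2.61 CPM (SD, n = 3). Its log2 fold change of 3.65 (SE 0.61) was 4.39 without 0 h replicate 2.

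Both genes of lipid-laden and phagocytic macrophages rose. Gpnmb, a transmembrane glycoprotein of macrophages full of lipid or debris and also of pigment cells, was at 6.98, 5.47 and 20.4 CPM at 0 h and at 161, 110 and 134 CPM at 5 days. The Gpnmb log2 fold change was 3.62 (SE 0.35, adjusted p = 4.64e-06) and 4.44 without 0 h replicate 3. That replicate also had the highest summed level of 6 pigment cell markers, whose range was 12.6 to 33.9 CPM at 0 h and 12.5 to 39.8 CPM at 5 days, with none of the 4 tested called. The part of pigment cells in the 0 h level of Gpnmb was not tested. Trem2, a receptor for lipids and cell debris that signals through the Tyrobp adapter, went from 0.230 ± 0.180 to 7.95 ± 2.15 CPM (SD, n = 3). The Trem2 log2 fold change of 4.96 (SE 0.52) was 5.80 without 0 h replicate 2.

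Cybb encodes the large membrane subunit of the phagocyte oxidase, which makes superoxide. Its values were 1.75, 1.09 and 3.44 CPM at 0 h and 44.6, 25.6 and 27.3 CPM at 5 days, a log2 fold change of 3.94 (SE 0.35, adjusted p = 2.04e-06). Ly86 encodes MD-1, the partner of a toll-like receptor relative on myeloid and B cells. It went from 0.320 ± 0.175 to 5.81 ± 1.81 CPM (SD, n = 3), a log2 fold change of 4.12 (SE 0.53).

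Because all but Cd163 rose, the make-up of the marker RNA was also described as the share of each gene in the summed marker counts of a library. These shares sum to 100% within a library, so a rise of one forces a fall of others, and with 334 to 725 counts at 0 h they are less precise there. No test was applied. The resident or alternatively activated group made up 11.4, 11.2 and 13.1% of the marker counts at 0 h and 2.43, 2.65 and 2.52% at 5 days. Cd163 went from 3.26 ± 0.899 to 0.0976 ± 0.0382% and Mrc1 from 7.67 ± 1.87 to 1.96 ± 0.167% (SD, n = 3). Neither gene's shares overlapped between times. The shares of Cx3cr1 went from 4.76 ± 1.28 to 1.26 ± 0.416%, of Csf1r from 13.5 ± 1.77 to 8.42 ± 0.292% and of Gpnmb from 17.5 ± 5.47 to 11.2 ± 0.344% (SD, n = 3). Each of these 5 genes had a lower share at 5 days, so a fall of their sum was set by the choice of genes. Together they held 41.0, 43.2 and 56.0% of the marker counts at 0 h and 23.1, 22.9 and 22.9% at 5 days. The 5 day libraries were thus much alike in this make-up although their summed levels differed.

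The genes that took a larger share at 5 days were led by Lyz2, from 9.03 ± 2.72 to 19.99 ± 0.327% (SD, n = 3), with 19.7 to 20.3% in the 5 day libraries. The leukocyte-wide group went from 9.99 ± 2.25 to 15.9 ± 1.33% and the macrophage identity group from 29.7 ± 2.43 to 38.4 ± 1.38% (SD, n = 3). Itgb2 went from 1.51 ± 0.520 to 4.53 ± 1.17% and Ccr2 from 0 to 1.22 ± 0.117% (SD, n = 3). The shares of the Fc receptor and adapter group, the C1q chains and the monocyte receptor group overlapped between times. In all, the shares of 17 markers did not overlap, 9 of them higher and 8 lower at 5 days. No value over all genes stands beside this count, and it depends on the set. With Lyz2 and Cd52 left out, Ms4a6c and Fcgr1 overlapped and Fcgr2b and C1qc no longer did.

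**Figure D3:**
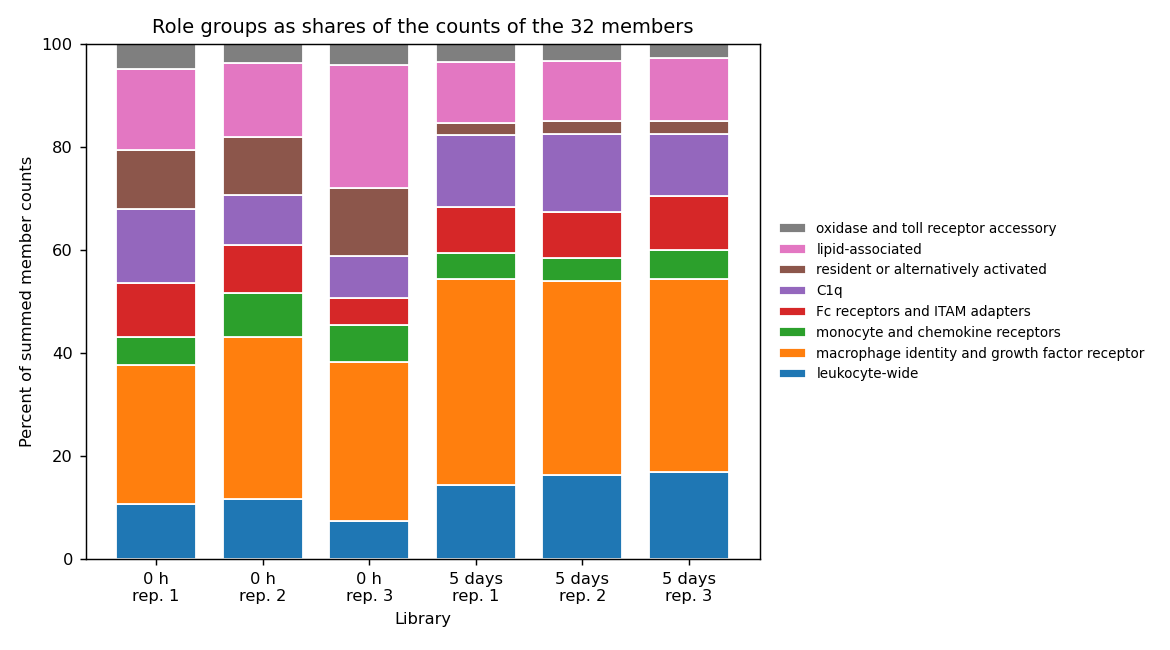
Share of each role in the summed counts of the 32 markers, stacked to 100% for each library. The brown band of resident or alternatively activated genes is 11.2 to 13.1% in the 0 h libraries and 2.43 to 2.65% in the 5 day libraries, and the 3 bars at 5 days are nearly the same.

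Compared per length, the order of the markers changed between times. The scale here is mean CPM per kilobase of the principal transcript in GENCODE M21. Lyz2 was first at both times, at 4.21 and 183. At 5 days the chains C1qa, C1qb and C1qc followed at 57.4, 45.7 and 45.1, of which the last 2 do not differ beyond the spread of the libraries, and then Gpnmb at 36.4, Fcer1g at 28.6 and Fcgr3 at 27.7. At 0 h Gpnmb (2.96) and Fcer1g (2.14) came after Lyz2, an order that rests on 0 h replicate 3. Without that library Lyz2 was at 2.48, C1qa at 1.96, Fcer1g at 1.71 and Gpnmb at 1.68, and in replicate 1 alone C1qa (2.97) lay above Lyz2 (2.14). Mrc1 was 9th of 32 at 0 h (12th without replicate 3) and 25th at 5 days, Cx3cr1 12th (16th) and 29th, and Cd163 17th (20th) and 32nd. Ccr2, at 2.58, was 31st at 5 days.

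Ligands, transcription factors and signalling partners of these markers were read from lists of other macrophage genes. As for the markers, a difference was built into the entry of a gene called higher that needed its 5 day counts to be tested. Of 12 myeloid transcription factors, all tested, 9 were higher, 3 of which met the filter through the 0 h libraries alone, and 1 was lower. Their median log2 fold change was 4.68 (4.39 with Tfec, which had no count at 0 h, set to its bound). Runx1, a regulator of blood cell development, rose from 1.88, 2.08 and 2.49 CPM to 433, 419 and 456 CPM, a log2 fold change of 7.65 (SE 0.14, adjusted p = 3.13e-11). The cells that carry it were not identified. Spi1, the gene of PU.1, went from 0.306 ± 0.215 to 17.0 ± 5.00 CPM (SD, n = 3). The Spi1 log2 fold change was 5.66 (SE 0.43), and 6.36 without 0 h replicate 2. Maf, a factor of resident macrophages that is also central to lens fiber differentiation, was the one lower, from 707 ± 19.0 to 315 ± 61.4 CPM (SD, n = 3). Spi1 was chosen for naming after its values were seen.

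Of 10 growth factors, recruiting ligands and their receptors, 7 were tested and 6 were higher, 4 of which met the low-count filter through the 0 h libraries alone. The Csf2ra log2 fold change of 0.47 was 0.34 to 0.42 and not called without 0 h replicate 2 or 3 or 5 day replicate 1 or 2. Csf1, a ligand of the Csf1r receptor, went from 12.3, 12.5 and 14.1 CPM to 52.3, 50.5 and 49.5 CPM, a log2 fold change of 1.97 (SE 0.13, adjusted p = 1.44e-07), while Il34, its other ligand, was not called. Ccl2, a ligand of the Ccr2 receptor, went from 4.60 ± 0.617 to 29.4 ± 7.83 CPM (SD, n = 3), a log2 fold change of 2.67 (SE 0.24). Cx3cl1, the ligand of the Cx3cr1 receptor, had the highest counts of the list and went from 63.0 ± 9.34 to 142 ± 14.2 CPM (SD, n = 3), a log2 fold change of 1.18 (SE 0.12). Ccl7 and Ccl8, other ligands of the Ccr2 receptor, were too low to test. Csf2rb, the shared beta chain of the GM-CSF receptor, had 3 counts at 0 h and 54.8 ± 13.1 CPM at 5 days (SD, n = 3), a ratio of 449 (exact 95% counting interval 153 to 2178). The fitted Csf2rb value of 8.66 was 9.56 without 0 h replicate 1. Csf1, Il34 and Ccl2 were chosen for naming after their values were seen.

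Of 14 genes that signal downstream of ITAM adapters or of their inhibitory counterparts, all tested, 13 were higher, 4 of which met the filter through the 0 h libraries alone, and Sirpa was not called. Lyn, a kinase that phosphorylates both kinds of motif, was at 2.42, 1.86 and 3.68 CPM and then at 44.1, 36.1 and 41.2 CPM, a log2 fold change of 3.93 (SE 0.22). Pirb, an inhibitory receptor of myeloid cells, had 0 counts at 0 h and 13.5 ± 3.34 CPM at 5 days (SD, n = 3), at least 109-fold higher. Ncf4, a cytosolic subunit of the phagocyte oxidase and partner of the Cybb subunit, had 0 counts at 0 h and was at least 68.2-fold higher at 5 days. Ncf1, a further cytosolic subunit, went from 0.848 ± 0.166 to 29.1 ± 5.69 CPM (SD, n = 3), a log2 fold change of 5.09 (SE 0.27). Of 7 partners of Itgb2 and of the toll-like receptor accessories, 6 were tested and 5 were called higher, but 0 of the 6 met the filter through the 0 h libraries alone, so nothing is read from this count. The Cd180 log2 fold change was 1.94 to 2.17 and not called without 0 h replicate 1 or 2 or 5 day replicate 2. Itgax, the CD11c chain that pairs with Itgb2, had 3 counts at 0 h, all in replicate 1, and 35.7, 32.4 and 22.0 CPM at 5 days, a ratio of 244 (exact 95% counting interval 83.0 to 1184). The fitted Itgax value of 7.78 was 10.94 without 0 h replicate 1 and 7.18 without 0 h replicate 2.

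Lists of macrophage states were read in the same way, with no test between lists. Of 19 genes of lipid-associated macrophages, 17 were tested and 12 were higher, 9 of which met the filter through the 0 h libraries alone. A further 1 was lower, and the median log2 fold change was 1.41. This list already summed to 4969 CPM on average at 0 h, against 57.3 CPM for the 32 markers, and to 6369 CPM at 5 days. The cells that carry these genes were not identified. Spp1, encoding osteopontin, went from 4.16, 0.22 and 0.24 CPM to 524, 382 and 1081 CPM. The Spp1 log2 fold change was 8.85 (SE 0.64), and 11.41 without 0 h replicate 1. Fabp5, a fatty acid-binding protein also made by epithelia, went the other way, from 1130 ± 129 to 62.1 ± 34.7 CPM (SD, n = 3), while Apoe was not called. Of 14 macrophage activation genes, 9 were tested, 7 were higher and 0 lower. The median log2 fold change was 5.63 (5.44 with a gene without counts at 0 h set to its bound). Only 1 of the 7 met the filter through the 0 h libraries alone. Arg1, encoding arginase 1, went from 0.40, 0.11 and 0 CPM to 150, 56.0 and 221 CPM. The Arg1 log2 fold change was 9.67 (SE 0.73), and 10.94 without 0 h replicate 1.

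Genes of blood monocytes and of resident macrophages were mostly too low to test. Of 12 genes of classical and patrolling monocytes, 5 were tested and only F13a1, the A chain of coagulation factor XIII, was called, from 1.42 ± 0.606 to 16.1 ± 5.96 CPM (SD, n = 3), and it needed its 5 day counts to be tested. Ly6c2, the surface antigen of classical monocytes, had no count in any library. Sequence that it may share with other genes was not examined, so the missing counts need not mean missing RNA. Of 13 genes of resident tissue macrophages, 5 were tested and 4 were higher, 2 of which met the filter through the 0 h libraries alone. Stab1, a scavenger receptor also of endothelium, went from 31.8 ± 2.58 to 91.5 ± 10.8 CPM (SD, n = 3), a log2 fold change of 1.52 (SE 0.12). Mgl2, a lectin, had 2 counts at 0 h and a ratio of 37.3 (exact 95% counting interval 9.95 to 314). Its fitted value of 5.00 was 7.57 without 0 h replicate 2. Folr2, the tested gene that was not called, had a log2 fold change of -0.39 (SE 0.64), and its times overlapped. Among the genes of this list too low to test, Lyve1 went from 16 to 5 counts and Cbr2 from 25 to 16. Clec10a went the other way, from 1 to 21 counts, and the rest had at most 2 counts at either time.

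Markers of other blood cells were compared in the same way, since many of the 32 genes are shared with other leukocytes. Lyz2, Itgam, Itgb2, Fcgr3, Cd14 and Cybb are also made by neutrophils. The summed level of 12 neutrophil markers was 0.119 to 0.328 CPM at 0 h and 16.0 to 29.0 CPM at 5 days. The 3 tested entered through their 5 day counts alone, so their calls, all higher, were built in by the filter. Most of it was Csf3r, the G-CSF receptor, at 15.2 ± 2.78 CPM at 5 days (SD, n = 3). The Csf3r log2 fold change was 6.14 (SE 0.47), and 6.73 without 0 h replicate 2. S100a9 was at 2.27 ± 1.13 CPM (SD, n = 3), while Ly6g, Mpo, Elane and Camp had no count in any library. As for Ly6c2, sequence that Ly6g may share with other genes was not examined. The part of neutrophils in the rise of the shared markers was not tested.

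Lymphocyte markers were near 0 at both times. The 12 T cell markers summed to 1.21 to 2.74 CPM at 0 h and 2.54 to 4.62 CPM at 5 days. Trbc2 and Lck were the highest at 5 days, and Cd3e, Cd3d, Cd8a and Cd2 had no count in any library. Trbc2 had 0 counts at 0 h and 36 over the 5 day libraries, and Cd4 had 0 and 15. Zap70 went from 13 to 3 counts and Cd5 from 9 to 1. The 6 B cell markers summed to at most 0.625 CPM in any library, and Cd79a and Ms4a1 had no count. The 6 NK cell markers summed to at most 1.43 CPM, and Ncr1, Gzma and Prf1 had no count. None of these 24 genes had enough counts to be tested. The 5 erythroid markers summed to 1.07 to 1.20 CPM at 0 h and 0.317 to 4.12 CPM at 5 days, with none tested.

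**Figure D4:**
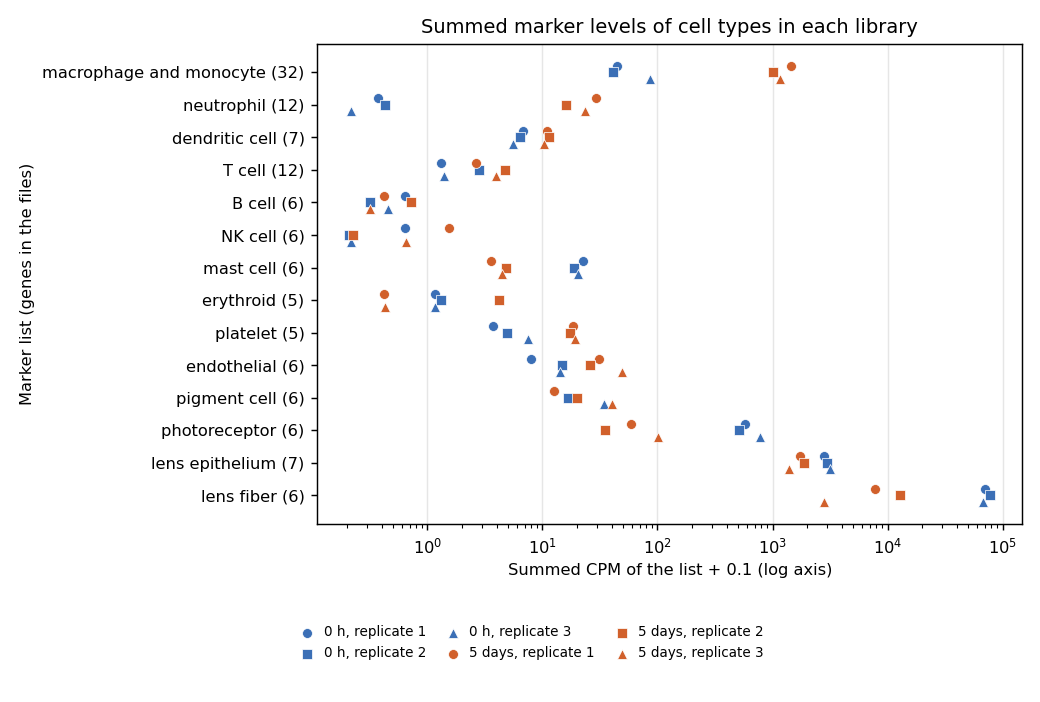
Summed level of the macrophage and monocyte markers and of 13 marker lists of other cell types in each library, as CPM plus 0.1 on a log axis, with the number of genes of each list in the files in brackets. The macrophage and monocyte sum at 5 days (1005 to 1452 CPM) lies above the sums of all blood cell lists and below those of the lens epithelium and, in each library, the lens fiber list.

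The labelled lens epithelium was present at both times. Its 7 markers summed to 2782 to 3129 CPM at 0 h and 1380 to 1883 CPM at 5 days, with 4 lower. Pax6 was the 1 called higher, with a Pax6 log2 fold change of 0.28 (adjusted p = 0.0483). It was 0.24 to 0.32 when a library was left out, and the call was kept only without 5 day replicate 3. The call was also lost with either replicate block, without the filter and with a stricter one. The 6 matched lens fiber markers summed to 68130 to 78350 CPM at 0 h and 2817 to 12760 CPM at 5 days, all 6 lower. The 6 photoreceptor markers, genes of the retina, summed to 513 to 771 CPM at 0 h and 34.7 to 100 CPM at 5 days, all 6 lower. The photoreceptor and fiber markers thus moved in the other direction from the macrophage markers.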

How the data were processed

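The data are 6 libraries of mouse lens capsules from total RNA (SMARTer Stranded Pico kit, per the labels' protocols), with 6207387 to 9774343 gene counts each. The files the authors deposited hold raw counts for each Ensembl gene. The submitters' processing notes name HISAT2, HTSeq, edgeR and the build GRCm39. Their versions, the annotation and the strand setting are not given, so reads of overlapping, antisense and near-identical genes are uncertain. The 5 summary lines (32.26 to 42.55% of reads) were left out. Symbols came from GENCODE M21 (GRCm38) by identifier, for 91.23% of genes.

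Genes passing the edgeR default filter were TMM-scaled, and the quasi-likelihood test of edgeR 4.0.16 in R 4.3.3 was run on them, checked on simulated data, with p-values adjusted by Benjamini-Hochberg over every tested gene. The standard error (SE) is the log2 fold change divided by the root of F. Values in every library are given for called markers with at least 20 mean CPM at 5 days, for markers not called and for markers with no count at 0 h. From each other list the called genes with the highest level, largest rise and largest fall are named, and for other cell types those highest at 5 days. Other genes given as examples were picked with their values known. Some genes of these lists are not reported here. The 32 markers, the other lists and the tests were chosen with earlier results of these data known, so their direction is not independent evidence. Alternatives for scaling were DESeq2 size factors, the total library size, and TMM computed with crystallin, mitochondrial and ribosomal RNA genes left out. Those for the filter were none, or a minimum of 2 CPM in 3 libraries. The others were the tests of DESeq2 1.42.0 and limma-voom (limma 3.58.1), replicate blocks, each library left out, and near-identical pairs summed.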

Additional observations from a re-analysis of the deposited data

How the results depend on the processing

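The count of 31 markers higher and 0 lower was the same under each of the 16 alternatives but the summed pairs, which merge genes and were not counted, with a median log2 fold change of 4.46 to 4.75. Summed pairs gave a log2 fold change of 5.57 for Fcgr3 with Fcgr2b and 5.38 for Lyz2 with Lyz1. Of the 85 genes tested over the other macrophage lists, 65 were higher and 4 lower. Over all tested genes 25.1% were called higher and 22.5% lower. Under the alternatives 62 to 75 were higher and 4 to 6 lower, among the genes each setting tested. For genes called higher that needed their 5 day counts to be tested, the difference was built into their entry under the main filter. Cd163 did not pass the stricter filter (a minimum of 2 CPM in 3 libraries). Deviations of libraries with the same title number from the means of their times correlated at 0.039, -0.09 and 0.043. Those of the other pairs correlated at -0.095 to 0.065. These values cannot show whether pools of different times share mice. With the replicate block by title number 31 markers were higher, and all tested genes gave 3550 higher and 3188 lower calls. The replicate block by library name number also gave 31 markers higher, with 3164 and 2604 calls over all genes, and it moved the log2 fold change to 6.14 for Cd53, 6.50 for Aif1, 5.10 for Itgam, -1.31 for Cd163, 4.75 for Ms4a7 and 5.83 for Trem2. Without Lyz2 and Cd52 the 5 day shares were 14.1% for Gpnmb, 10.6% for Csf1r and 2.46% for Mrc1. The summed level was 55.0 CPM at 0 h and 1255 CPM at 5 days per total gene counts. Leaving out each library in turn gave 42.9 to 65.4 CPM at 0 h and 1080 to 1304 CPM at 5 days. The depth at 0 h, 334 to 725 marker counts per library, limits fold changes and shares more than calls. The levels per length at 0 h without a library were added after seeing the data.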

Other observations

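Genes of microglia, the macrophages of the retina and brain, were read from a list of 9, of which 5 were tested, 4 were higher, 2 of which met the filter through the 0 h libraries alone, and 1 lower. Tmem119 had 0 counts at 0 h and was at 6.66, 5.00 and 8.40 CPM at 5 days, at least 56.5-fold higher. Olfml3, the highest called gene of the list, went from 564 ± 89.4 to 819 ± 239 CPM (SD, n = 3), with a log2 fold change of 0.54 (adjusted p = 0.0407 in edgeR's quasi-likelihood test). Its call was lost without 0 h replicate 1 or 2 or 5 day replicate 1 or 2 and with the replicate block by title number, and its log2 fold change was 0.41 to 0.75 when a library was left out. Sall1, a transcription factor of microglia that other tissues also use, fell from 110 ± 0.739 to 60.9 ± 8.85 CPM (SD, n = 3). Among the genes too low to test, Siglech went down, from 1.08 ± 0.597 to 0.0945 ± 0.0836 CPM (SD, n = 3). The means of P2ry12, Gpr34 and Slc2a5 went from 0.430, 0.288 and 0.318 CPM to 0.942, 0.968 and 0.592 CPM.

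Markers of other cells that share genes with macrophages were low. The list of 7 dendritic cell markers summed to 5.46 to 6.71 CPM at 0 h and 10.3 to 11.4 CPM at 5 days. Of its 3 tested genes, Zbtb46 met the low-count filter through the 0 h libraries alone and was not called (log2 fold change 0.12, adjusted p = 0.804 in edgeR's quasi-likelihood test). Flt3 and Ccr7 were called higher but entered through their 5 day counts, which builds in the difference. Flt3, a growth factor receptor, was at 3.17, 1.37 and 1.85 CPM at 5 days, and the Flt3 log2 fold change of 3.61 was 7.06 without 0 h replicate 2, the library with all its 0 h counts. Ccr7, a receptor of migrating dendritic cells, had 0 counts at 0 h and was at least 13.8-fold higher. Of 5 platelet markers 2 were tested and both were higher. Itga2b, an integrin chain of platelets, went from 4.23 ± 1.63 to 8.43 ± 2.56 CPM (SD, n = 3), with a log2 fold change of 0.98. It was not called without 0 h replicate 1 (0.70) or 2 (1.05) or 5 day replicate 1 (0.93) or 2 (0.76). Pf4, a chemokine of platelets that some macrophages also make, went from 1.03 ± 0.849 to 7.94 ± 1.79 CPM (SD, n = 3), and its log2 fold change of 2.96 was 3.65 without 0 h replicate 3. Of 6 endothelial markers 5 were tested. Kdr and Vwf, which met the filter through the 0 h libraries alone, were not called, and Pecam1, Cdh5 and Tek, which needed their 5 day counts, were called higher. The Kdr log2 fold change of 0.99 was called at 1.34 without 0 h replicate 3 and at 1.29 without 5 day replicate 2. Kdr was also called when scaled by total library size (1.12), with the DESeq2 test (1.02) and without the low-count filter (1.0). The replicate block by title number called it too, at 0.99. Pecam1, which leukocytes share with endothelium, went from 0.471 ± 0.426 to 8.95 ± 2.94 CPM (SD, n = 3), and the Pecam1 log2 fold change of 4.19 was 5.14 without 0 h replicate 3. Cdh5, a junction protein of endothelium, went from 0.650 ± 0.453 to 5.07 ± 3.15 CPM, and Tek, a receptor of angiopoietins, from 0.258 ± 0.269 to 3.19 ± 1.42 CPM (SD, n = 3). The log2 fold change was 2.90 (SE 0.65) for Cdh5 and 3.65 (SE 0.74) for Tek. The Tek log2 fold change was 4.64 without 0 h replicate 1 and 3.03 without 0 h replicate 2. Of 6 mast cell markers only Kit was tested, and it fell from 20.4 ± 1.75 to 4.20 ± 0.644 CPM (SD, n = 3).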
